A study of Mus musculus with 15 samples.

Results

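The M1-like and M2-like macrophage standards of a macrophage reprogramming study were compared across 754 genes. These standards are 8 of the 15 libraries of the series, chosen by their labels alone: 4 libraries labelled MPLA and 4 labelled IL4. All 8 came from mouse bone marrow-derived macrophages (BMDMs), bone marrow cells grown for 7 days in 20 ng/mL of the macrophage growth factor M-CSF. The MPLA cells then received 20 ng/mL of monophosphoryl lipid A (MPLA) and the IL4 cells 20 ng/mL of interleukin 4 (IL-4), each for 4 days by the labels. Strain, genotype, age, sex and the number of animals were not given in the sources used here, and there was no untreated BMDM group. The labels do not say whether the replicates were separate cultures. The study's legend to its plots of these data calls its samples biologically independent, but with a sample number other than the 4 libraries deposited per group. P-values measure the spread between these libraries, part of which may be technical, and a difference does not tell which of the stimuli moved a gene. RNA was counted on the nCounter Myeloid Innate Immunity panel, in which a colour-coded probe binds each target RNA and bound probes are counted without amplification.

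MPLA is a detoxified form of bacterial lipopolysaccharide. It is sensed by Toll-like receptor 4 with its co-receptor CD14, which activates NF-kB and the transcription of cytokines, chemokines and feedback inhibitors. IL-4 signals through its receptor and the transcription factor STAT6, and in mouse macrophages it is known for switching on the secreted protein RELMα (Retnla), chitinase-like proteins (Chil3) and the mannose receptor (Mrc1).

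The libraries differed in ways that the group labels do not give. Total gene counts were 1618914 to 1784833 in MPLA and 1087549 to 1639968 in IL4. Background, set for each library at 2 SD over the mean of its 8 negative controls, was 20.3 to 34.9 counts. Between 560 and 581 genes were above it in MPLA, against 548, 603, 463 and 554 in IL4 1 to 4. The positive controls of IL4 2 (geometric mean 887) and IL4 3 (993) were lower than those of the other 6 libraries (1583 to 2315). MPLA 1 and 4 were nearly identical, as were MPLA 2 and 3: their chi-square per degree of freedom was 2.56 and 1.98, against 41.4 to 51.3 for other MPLA pairs and 267 to 1250 for IL4 pairs. Each pair differed by more than counting noise alone, but repeat runs of 1 RNA can do so too, and the labels do not say whether the pairs are repeat runs. All 4 libraries were kept as labelled. The spread in MPLA may then be understated, so a fit with each such pair summed into 1 library was also made.

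Fibroblast genes were abundant in libraries labelled as macrophages. The 8 fibroblast genes on the panel summed to 134331 to 149648 counts in every MPLA library and to 26402, 58069 and 17156 in IL4 1, IL4 2 and IL4 4, but to 143 in IL4 3. Their mean level was 11.11 to 11.30 log2 CPM (log2 of counts after library-size scaling) in MPLA and 9.81, 10.51, 4.02 and 8.89 in IL4 1 to 4. No MPLA library was poor in these RNAs, so for genes that fibroblasts also express the fibroblast content and the treatment cannot be told apart, and in bulk RNA fewer cells of a type cannot be told apart from less RNA per cell. Macrophage genes were abundant in every library, and 14 pan-macrophage genes averaged 10.05 to 10.23 log2 CPM in MPLA and 10.36, 10.84, 11.20 and 10.49 in IL4 1 to 4. Markers of T and NK cells (2 genes), B cells (1 gene) and endothelium (2 genes) summed to at most 85 counts in any library.

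IL4 2 stood apart from the other IL4 libraries. Its 15 interferon response genes averaged 9.41 log2 CPM, above all MPLA libraries (8.11 to 8.15) and the other IL4 libraries (6.94 to 7.38), and it held 24006 counts of the interferon-induced chemokine Cxcl9, against 26 to 36 in the other IL4 libraries. Its 27 IL-4 response genes averaged 7.15, against 8.41 to 8.72 in the other IL4 libraries and 5.59 to 5.71 in MPLA. Some differences and list counts changed when this library was left out, and the main ones are given.

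**Figure D1:**
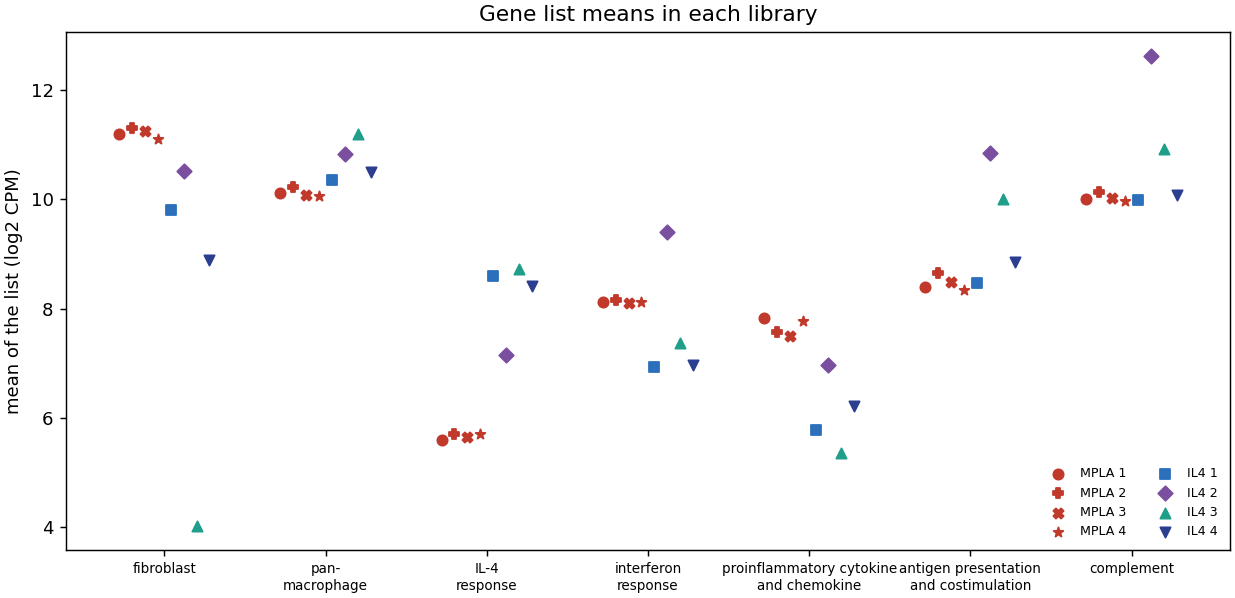
Mean log2 CPM of 7 gene lists (x axis) in each of the 8 libraries, 1 point per library. The fibroblast mean was 4.02 in IL4 3 and 8.89 or more in the other libraries, IL4 2 was lowest of the IL4 libraries for the IL-4 response list and highest for the interferon response, complement and antigen presentation lists, and the 4 MPLA libraries lay close together throughout.

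Of 754 genes, 92 (12.2%) were called higher in MPLA and 107 (14.2%) lower, at an adjusted p under 0.05 (edgeR quasi-likelihood test), and in 278 genes (36.9%) the groups did not overlap. A difference was said to hold in each IL4 library when the gene was called with all 8 libraries, was called the same way after leaving out each IL4 library in turn, and had every IL4 library on the same side of all MPLA libraries. This was so for 117 genes (15.5%), of which 57 were higher (7.56%) and 60 lower (7.96%) in MPLA. In 109 of them (14.5%), 56 higher (7.43%) and 53 lower (7.03%), the higher group was above background in all 4 libraries. These genes are described below. For 36 genes higher and 31 lower in MPLA, every IL4 library was at least 1 log2 unit from the MPLA mean. The largest fitted differences belonged to products of IL-4-treated macrophages, such as Retnla and Rnase2a, and on the MPLA side to the scavenger receptor Marco, the formyl peptide receptor Fpr1 and the collagen Col12a1.

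The count of calls depended on the libraries and on the scaling. Without IL4 2, 142 genes (18.8%) were called higher and 153 (20.3%) lower, and 191 of the 199 genes called with all libraries were among them. When MPLA 1, MPLA 2, MPLA 3 or MPLA 4 was left out, the calls fell to 38, 46, 53 and 40 higher and 36, 52, 56 and 41 lower. With MPLA 1 and 4 summed, and MPLA 2 and 3 summed, 20 genes (2.65%) were called, 16 higher (2.12%) and 4 lower (0.531%), all of them among the 117. When libraries were scaled to the pan-macrophage genes, which moved the median difference of all genes from -0.05 to 0.55, 43 genes (5.7%) were called lower and 129 (17.1%) higher. When they were scaled to the housekeeping genes, 123 (16.3%) were called lower and 45 (5.97%) higher. A list's count in one of these fits stands against the share of all genes called in that fit. Of the 117 genes, 80 were called the same way under all 6 scalings tried.

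**Figure D2:**
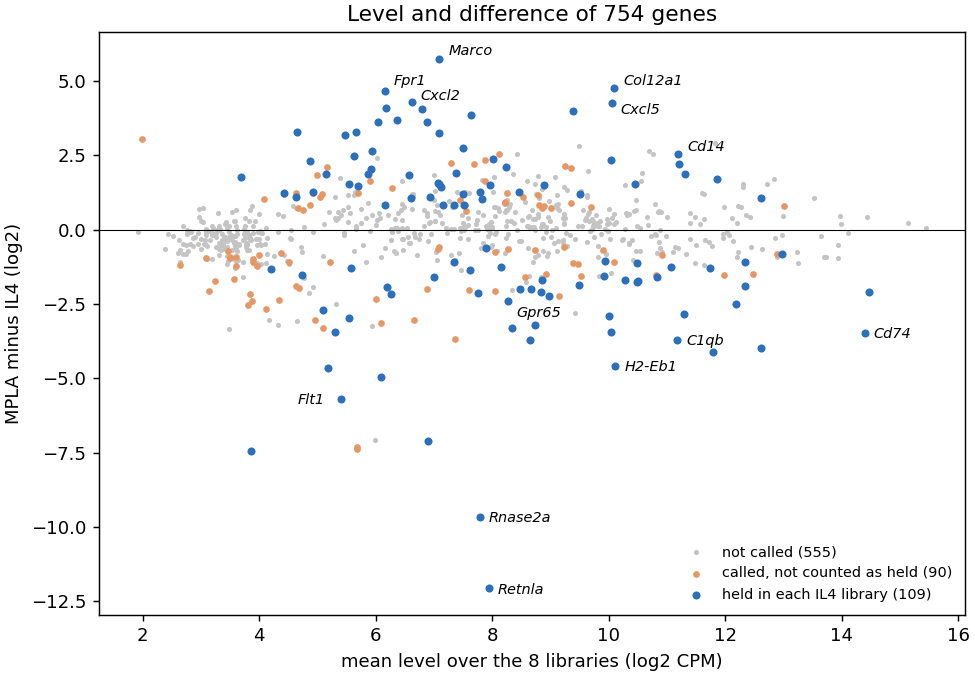
MPLA minus IL4 difference (log2, y axis) against the mean level over the 8 libraries (log2 CPM, x axis) for 754 genes, 1 point per gene. The 109 genes that held in each IL4 library with the higher group above background are blue, 90 other called genes orange and 555 genes not called grey. By these fitted values Retnla and Rnase2a lie farthest below 0 and Marco farthest above it.

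Of the 27 IL-4 response genes on the panel, 18 were called lower in MPLA and none higher, where 14.2% of all genes were called lower. Of these, 11 held in each IL4 library (7.96% of all genes held lower), and the median difference was -2.36 (log2), against -0.05 over all genes. Under pan-macrophage scaling 14 were called lower (5.7% of all genes), without IL4 2 there were 17 (20.3% of all genes), and with MPLA pairs summed 3 (0.531%). Retnla, which encodes the secreted protein RELMα, was counted 10, 6, 11 and 9 times in MPLA 1 to 4, below background, and 55590, 1532, 26941 and 13193 times in IL4 1 to 4. It was at least 591-fold lower in MPLA, where the bound sets the IL4 mean against the background of the MPLA libraries (adjusted p = 0.000881, edgeR), and at least 1251-fold lower without IL4 2, which held far less than the other IL4 libraries.

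The secreted ribonuclease Rnase2a, of the eosinophil-associated ribonuclease family, was at 12, 20, 18 and 29 counts in MPLA, below background, and at 11454, 329, 15562 and 15945 in IL4. It was at least 248-fold lower in MPLA (adjusted p = 0.00198), and at least 655-fold without IL4 2. Its relative Ear3 was at 1 to 4 counts in MPLA and 78, 22, 687 and 168 in IL4. The probes of this family may share targets, so the split between its members is uncertain. Flt1, a receptor for vascular endothelial growth factor, was at 4 to 16 counts in MPLA and at 244, 247, 361 and 770 in IL4, at least 16.2-fold lower in MPLA. The eosinophil chemoattractant Ccl24 was at 10 to 18 counts in MPLA and at 312, 132, 270 and 167 in IL4, at least 9.39-fold lower. IL4 2 was near another IL4 library for Flt1 and Ccl24, but by far the lowest IL4 library for Retnla and Rnase2a.

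Part of the IL-4 response was missing from IL4 2. The chitinase-like gene Chil3 was at 10 to 14 counts in MPLA and at 1258, 13, 2821 and 756 in IL4, so that IL4 2 was at background like MPLA. By the rule above it is among the 117 genes that held, since IL4 2 was still slightly above MPLA after scaling, but not among the 109 with all IL4 libraries above background. Its near-identical relative Chil4 ran in parallel, at 1196, 20, 2630 and 797 counts in IL4, and the probes may not separate the pair. Pparg, a lipid-sensing nuclear receptor, was at 63 to 93 counts in MPLA and at 591, 63, 451 and 603 in IL4. Its difference was -3.04 ± 0.65 (SE; adjusted p = 0.0132) and it did not hold in IL4 2. The transcription factors Irf4 (108, 19, 190 and 188 counts in IL4) and Egr2 (284, 38, 548 and 335) and the chemokine Ccl22 (92, 15, 314 and 260), named after their values were seen, were also lowest in IL4 2. Without IL4 2 Chil3 was at least 64.4-fold lower in MPLA, and the Pparg difference was -3.41. The mannose receptor Mrc1 was at 523 to 1146 counts in MPLA and 4433, 953, 3084 and 9626 in IL4. Its groups overlapped in raw counts through IL4 2 but not after scaling, and its difference was -2.92 ± 0.64 (adjusted p = 0.0143, edgeR). Mrc1 lost its call with MPLA pairs summed (adjusted p = 0.172), with the fibroblast mean as a covariate (0.065) and with a replicate block (0.0857). The call was also lost without MPLA 1 (adjusted p = 0.0554) or MPLA 4 (0.0521), and by the methods' own test (0.221).

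**Figure D3:**
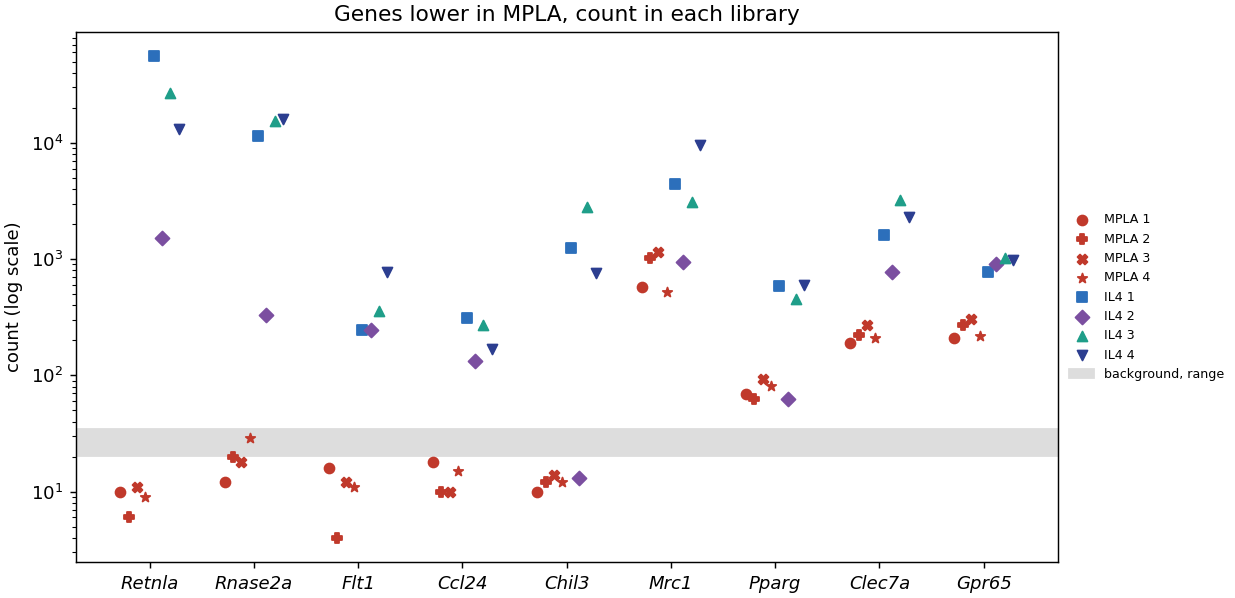
Raw counts (y axis, log scale) of 9 genes called lower in MPLA, 1 point per library, with the range of the 8 libraries' backgrounds in grey. Retnla, Rnase2a, Flt1, Ccl24 and Chil3 lay in or under that range in all MPLA libraries, and IL4 2 fell among the MPLA libraries for Chil3, Mrc1 and Pparg but not for Flt1, Clec7a or Gpr65.

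Genes that were above background in all 8 libraries give differences measured on both sides. Clec7a, the β-glucan receptor dectin-1, was at 190, 224, 274 and 211 counts in MPLA and at 1598, 778, 3224 and 2310 in IL4. The groups were well apart, with a difference of -3.70 ± 0.49 (adjusted p = 0.00198) and of -2.17 against IL4 2, the nearest library. Gpr65, an acid-sensing receptor, was at 210, 269, 304 and 220 counts in MPLA and at 772, 905, 1031 and 985 in IL4. Its difference was -2.40 ± 0.25 (adjusted p = 0.00062), it varied least over the IL4 libraries of the 6 genes named for holding lower (-2.18 to -2.79), and it was called with MPLA pairs summed (adjusted p = 0.0355). The monocyte chemoattractant Ccl8 was at 288, 117, 143 and 293 counts in MPLA and at 466, 1843, 1821 and 1780 in IL4, with a difference of -3.31 ± 0.50. The low-affinity IgG receptor Fcgr3 (-1.77 ± 0.24) and the costimulation-associated gene Cd83 (-1.68 ± 0.20) also held in each IL4 library.

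Start regions were searched for the letters that STAT6 is known to bind. The motif TTCNNNNGAA reads the same on both strands and was looked for from 250 bases before to 50 bases after the start of each gene (RefSeq, GRCm38.p6). It was present for 8.01% of all genes with such a window and for 7.17% of the 572 panel genes that had one. Among genes with a window, it was present for 5 of the 38 that held lower in MPLA (13.2%) and 4 of the 43 that held higher (9.3%). These counts are small, and the difference between them was not tested. Retnla and Clec7a are shown because both are among the named genes with a large difference. Each line gives 30 bases on the gene's strand, with the motif in capitals.
Retnla, chr16:48842454-48842483, plus strand, motif 145 to 136 bases before the start: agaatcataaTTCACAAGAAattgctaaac
Clec7a, chr6:129472891-129472920, minus strand, motif 131 to 122 bases before the start: catttcagttTTCTTCAGAAgttacagcct
A match describes the letters only and does not show that the factor bound there.

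Class II antigen presentation genes and the C1q genes were lower in MPLA, by amounts that varied between IL4 libraries. Of 21 antigen presentation and costimulation genes, 7 were called lower and none higher, against 14.2% of all genes called lower, and none with MPLA pairs summed. The other 14 were not called with all libraries. Without IL4 2, 7 were called lower and 3 (Cd86, Icosl and Cd1d1) higher, where 20.3% and 18.8% of all genes were. All 7 called lower with all libraries held in each IL4 library: the class II chains H2-Aa, H2-Ab1 and H2-Eb1, the invariant chain Cd74, the peptide-loading genes H2-DMa and H2-DMb1, and Cd83. The list's median difference was -1.64, and -0.41 without IL4 2. H2-Eb1 was at 513, 630, 660 and 576 counts in MPLA and at 721, 15029, 19858 and 2946 in IL4, so that IL4 1 was close to MPLA and IL4 2 and IL4 3 were far above it. Its difference was -4.59 ± 0.99 (adjusted p = 0.0138), and -1.01 against IL4 1 alone. Cd74 was at 13653 to 14844 counts in MPLA and at 21003, 155430, 194985 and 62067 in IL4, which again put IL4 1 nearest to MPLA. H2-DMa differed by -3.20 ± 0.59 and by -1.53 to -4.07 against single IL4 libraries.

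Of 7 complement genes, C1qa, C1qb and C1qc, which encode the chains of the recognition molecule C1q, were called lower in MPLA (14.2% of all genes) and held. C5ar1 was called higher and the other 3 were not called. None of the 7 was called with MPLA pairs summed, and without IL4 2 there were 2 higher (18.8% of all genes) and 3 lower (20.3%). The list's median was -2.49, and -0.73 without IL4 2. C1qb was at 1250, 1491, 1563 and 1332 counts in MPLA and at 4174, 36950, 6442 and 7472 in IL4. IL4 2 was the highest by far, and the difference was -3.72 ± 0.68 with it and -2.63 without it (adjusted p = 0.00746 and 0.00014). C1qa followed the same order, with -3.43 ± 0.66 and -2.37 without IL4 2. The receptor of the fragment C5a, C5ar1, went the other way at 1.52 ± 0.30 and held.

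Marco, Fpr1, Fpr2 and Cd14, which take part in sensing bacteria, were among the genes higher in MPLA. Of 21 genes for bacterial sensing and phagocytosis, 6 were called higher (Tlr5, Cd14, Marco, Fpr1, Fpr2 and Nod2) and 5 lower (Tlr1, Tlr4, Tlr8, Cd36 and Clec7a), against 12.2% and 14.2% of all genes, with a median of -0.02. Without IL4 2, 9 were called higher (18.8% of all genes) and 5 lower (20.3%), and with MPLA pairs summed 3 higher (2.12%) and none lower. The scavenger receptor Marco was at 1614, 2051, 2146 and 1554 counts in MPLA and at 21, 39, 16 and 22 in IL4, above background in IL4 2 only. With each IL4 library below background set to it, Marco was at least 38.4-fold higher in MPLA (adjusted p = 6.67e-05, edgeR). Fpr1, a receptor for formylated bacterial peptides, was at 860, 542, 498 and 745 counts in MPLA and at 11, 28, 18 and 16 in IL4, again above background in IL4 2 only, and was at least 14.7-fold higher in MPLA. Its relative Fpr2 was at 1374, 864, 869 and 1230 counts against 17, 146, 17 and 11, where IL4 2 stood above the other IL4 libraries, and was at least 16.2-fold higher in MPLA, or 23.2-fold without IL4 2. Cd14, the co-receptor through which Toll-like receptor 4 meets its ligand, was at 12993, 8695, 8997 and 12263 counts in MPLA and at 961, 1505, 1500 and 1176 in IL4. It differed by 2.53 ± 0.28 (adjusted p = 0.000702), by at least 2.07 against every IL4 library, and was well above background throughout.

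The chemokines Cxcl1, Cxcl2, Cxcl5, Ccl3 and Ccl4 and the cytokines Tnf, Il1a and Il1b were higher in MPLA. Of 26 proinflammatory cytokine and chemokine genes, 9 were called higher (Il1a, Il1b, Tnf, Ccl3, Ccl4, Cxcl1, Cxcl2, Cxcl5 and Osm) and 1 lower (Il23a, not above background in any MPLA library), all 10 held, and the median difference was 0.90. Over all genes 12.2% were called higher and 14.2% lower. Without IL4 2, 13 of the 26 were called higher (18.8% of all genes) and 1 lower (20.3%), and with MPLA pairs summed 4 higher (2.12%) and none lower. Cxcl2 was at 1024, 594, 631 and 977 counts in MPLA and at 18, 40, 24 and 36 in IL4, at least 15.8-fold higher in MPLA (adjusted p = 7.83e-05). Ccl3, a chemoattractant of monocytes, was at 4954, 3906, 4060 and 4953 counts in MPLA and at 670, 633, 387 and 827 in IL4. The libraries of each group lay close together, with a difference of 2.33 ± 0.24 and of 1.99 to 2.77 against single IL4 libraries. Ccl4, a related chemokine, was alike at 2.37 ± 0.33. Tnf was at 1518, 1050, 1065 and 1498 counts in MPLA and at 110, 504, 128 and 123 in IL4, so that IL4 2 was nearest to MPLA. Its difference was 2.10 ± 0.50 (adjusted p = 0.0193), and 2.83 without IL4 2. It was not called under housekeeping scaling (1.65, adjusted p = 0.0923), with MPLA pairs summed (2.07, adjusted p = 0.172), with the fibroblast mean as a covariate (1.71, adjusted p = 0.1), or without MPLA 1 (adjusted p = 0.0563) or MPLA 4 (adjusted p = 0.0535). The methods' own test did not call it either (adjusted p = 0.54). Il1b was at 546, 121, 115 and 418 counts in MPLA, where the pairs MPLA 1 and 4 and MPLA 2 and 3 stood apart, and at 14, 55, 7 and 19 in IL4, at least 4.66-fold higher in MPLA (adjusted p = 0.0166). It was not called with MPLA pairs summed (adjusted p = 0.111), with the fibroblast covariate (adjusted p = 0.0949), or without MPLA 1 (adjusted p = 0.0554) or MPLA 4 (adjusted p = 0.0521). Neither was it called by the methods' own test (adjusted p = 0.47). Il1a, at 37 to 44 counts in MPLA and 7 to 9 in IL4, was just above background in MPLA and below it in IL4.

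The nearby chemokine genes Cxcl1 and Cxcl2 carry the same NF-kB-type letters near their starts. GGGANNNNCC on either strand was present within the same window for 22.9% of all genes, for 34.3% of the panel genes, and for 13 of the 43 genes with a window that held higher in MPLA (30.2%), so it was no more frequent there than on the panel. Both are shown because they are the neutrophil chemoattractants of the largest differences that had a window, and the capitals mark the motif. Each also matches on the other strand, shifted by 1 base, and Cxcl1 holds a further match 90 to 81 bases before its start.
Cxcl1, chr5:90891164-90891193, plus strand, motif 71 to 62 bases before the start: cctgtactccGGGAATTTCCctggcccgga
Cxcl2, chr5:90903792-90903821, plus strand, motif 97 to 88 bases before the start: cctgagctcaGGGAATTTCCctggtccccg

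The feedback inhibitors Nfkbie and Tnfaip3 of NF-kB signalling were among the genes higher in MPLA. Of 15 genes of the pathway and its inhibitors, 8 were called higher (Nfkbia, Nfkbie, Nfkbiz, Tnfaip3, Birc2, Traf1, Traf2 and Dusp1) and 1 lower (Irf5), against 12.2% and 14.2% of all genes, with a median of 0.84. Of the 8, Nfkbia, Nfkbiz and Traf2 did not hold in each IL4 library. Under housekeeping scaling 2 were called higher (5.97% of all genes), under pan-macrophage scaling 10 (17.1%), without IL4 2 also 10 (18.8%), and with MPLA pairs summed none (2.12%). Dusp1, a phosphatase that inactivates MAP kinases, was at 11287, 7083, 7504 and 10864 counts in MPLA and at 1673, 2364, 1214 and 1870 in IL4. It differed by 1.86 ± 0.26 (adjusted p = 0.00222). Tnfaip3, which encodes the ubiquitin-editing inhibitor A20, was at 861, 721, 742 and 850 counts against 121, 258, 227 and 180, with 1.50 ± 0.26 (adjusted p = 0.00657). Irf5, the transcription factor that the study delivered to IL-4-treated macrophages, was at 1409, 1163, 1173 and 1327 counts in MPLA and at 1692, 1986, 1917 and 1770 in IL4. It was lower in MPLA by -1.07 ± 0.21 (adjusted p = 0.00918) and held in each IL4 library, but the call was lost under pan-macrophage scaling, where the difference was -0.47 (adjusted p = 0.22), with MPLA pairs summed (adjusted p = 0.172), with the replicate block (adjusted p = 0.0633), in the fit of all 15 libraries (adjusted p = 0.0784) and by the methods' own test.

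Some genes often used as markers of M1-like macrophages were not called, and of the preset list of 12 polarization genes 2 were called higher (Tnf and Il1b) and 5 lower, among them Irf5, Retnla, Chil3 and Mrc1, against 12.2% and 14.2% of all genes. Without IL4 2, 5 of the 12 were called higher and 5 lower, where 18.8% and 20.3% of all genes were. With MPLA pairs summed none was called higher (2.12% of all genes) and 1 lower (0.531%). Il6 was at 508, 268, 286 and 451 counts in MPLA and at 11, 162, 7 and 34 in IL4, a difference of 2.41 ± 0.85 (adjusted p = 0.0656). Ccl5 was at 5159 to 5751 counts in MPLA and at 41, 1843, 267 and 138 in IL4, a difference of 2.81 ± 0.99 (adjusted p = 0.0673). In both genes every MPLA library was above every IL4 library, and without IL4 2 both were called, at 3.98 and 4.58 (adjusted p = 0.000803 and 0.00201). The costimulatory gene Cd86 was at 249 to 298 counts in MPLA and at 38, 1147, 103 and 107 in IL4. Its difference was -0.74 with IL4 2 and 1.20 without it (adjusted p = 0.572 and 0.0238), so the direction turned on 1 library. Nos2, the inducible nitric oxide synthase, was at 253, 78, 102 and 230 counts in MPLA and at 31, 221, 53 and 33 in IL4, with groups that overlapped through IL4 2 and 0.49 ± 0.67 (adjusted p = 0.617), and 1.47 without IL4 2 (adjusted p = 0.0518). Il12b was below background in all 8 libraries. Of the 15 interferon response genes, 1 was called higher (Usp18, 1.00 ± 0.28) and none lower, against 12.2% and 14.2% of all genes. Without IL4 2, 6 were called higher (18.8% of all genes), under pan-macrophage scaling 4 (17.1%), and under housekeeping scaling (5.97%) or with MPLA pairs summed (2.12%) none.

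A pair of genes known from neutrophils and from myeloid cells stimulated by bacteria were higher in MPLA. The antimicrobial peptide gene Camp was at 863, 340, 328 and 760 counts in MPLA and at 27, 28, 15 and 23 in IL4, at least 11.6-fold higher in MPLA (adjusted p = 0.00062). S100a8, a calcium-binding alarmin, was at 644, 293, 300 and 533 counts against 18, 27, 33 and 19, at least 9.63-fold higher (adjusted p = 0.000702). In both genes MPLA 1 and 4 were about alike and above MPLA 2 and 3. Of the 8 neutrophil genes on the panel these were the 2 called higher (12.2% of all genes), and Ly6g, below background in all 8 libraries, was called lower (14.2%). The defining genes S100a9 and Cxcr2 were also below background in all 8 libraries, and the list summed to 785 to 1643 counts in MPLA and 175 to 299 in IL4. The part of neutrophils in these differences was not tested.

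**Figure D4:**
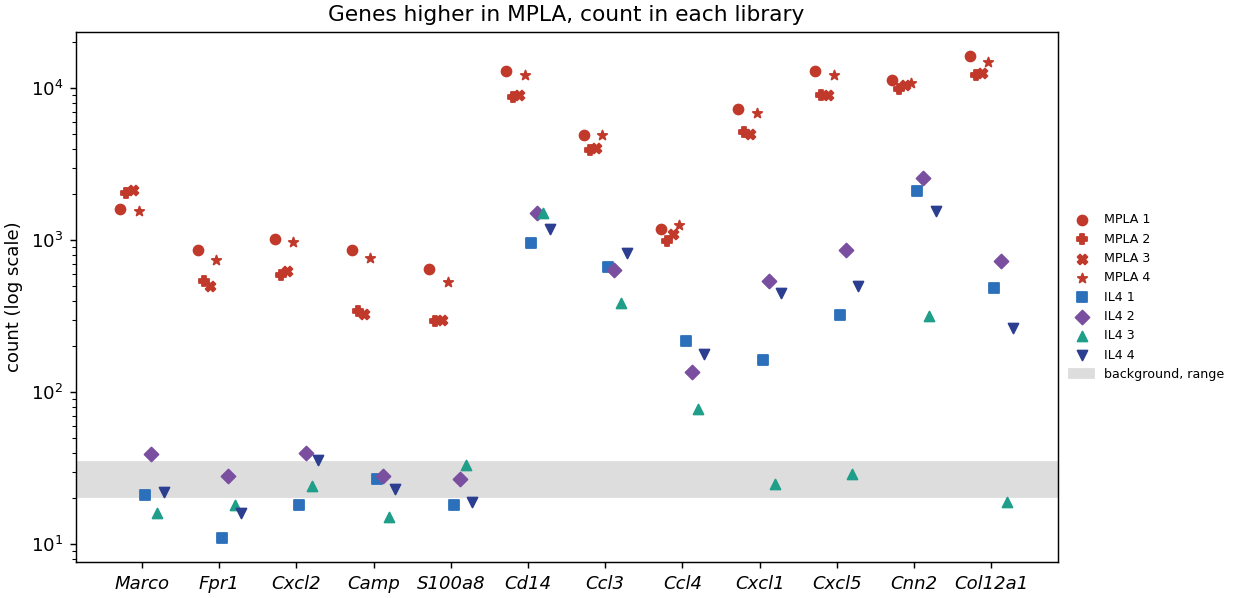
Raw counts (y axis, log scale) of 12 genes called higher in MPLA, 1 point per library, with the range of the 8 libraries' backgrounds in grey. For Marco, Fpr1, Cxcl2, Camp and S100a8 all IL4 libraries lay near background, for Cd14, Ccl3 and Ccl4 all lay above it, and for Cxcl1, Cxcl5, Cnn2 and Col12a1 the IL4 3 library fell far below the other IL4 libraries.

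IL4 3, which held almost no fibroblast RNA, was the lowest IL4 library for some of the genes higher in MPLA and not for others. Among the 56 higher genes that held, IL4 3 was the lowest IL4 library by 1 log2 unit or more for 10 (17.9%, against 11.3% of all genes): Cnn2, Col11a1, Col12a1, Crabp2, Cxcl1, Cxcl5, Fgfr1, Gem, Kalrn and Nr4a2. It lay inside the range of the other IL4 libraries for 18 (32.1%, against 43.9% of all genes), among them Marco, Fpr1, Fpr2, Cxcl2, Tnf, Il1a and Trem1. It lay above them for 5 (8.93%, against 25.3% of all genes), among them Cd14, C5ar1, S100a8 and Tnfaip3. For the remaining 23 (41.1%, against 19.5% of all genes) it was lowest by less than 1, among them Ccl3, Ccl4, Camp and Dusp1. Of these 10 genes, 4 are described here, and the IL4 libraries other than IL4 3 held fewer fibroblast counts than MPLA as well. Cxcl1 was at 7347, 5123, 4966 and 6848 counts in MPLA and at 163, 540, 25 and 452 in IL4, with differences of 4.45, 3.09 and 3.52 against IL4 1, IL4 2 and IL4 4, while IL4 3 was below background. Cxcl5, another neutrophil chemoattractant, was at 8971 to 12941 counts against 320, 863, 29 and 503, and its smallest difference was 3.25. Col12a1, a fibril-associated collagen, was at 12297 to 16200 counts against 482, 733, 19 and 263, at least 40.3-fold higher in MPLA. The actin-binding gene Cnn2 was at 9934 to 11352 counts against 2109, 2563, 316 and 1554, with 2.22 ± 0.53 and at least 1.60 against every IL4 library. With the fibroblast mean of each library as a covariate, the fitted difference of Cxcl1 went from 3.98 to 2.75, that of Cxcl5 from 4.24 to 2.94, that of Col12a1 from 4.74 to 3.34 and that of Cnn2 from 2.22 to 1.29. All 4 genes were called in that fit (adjusted p = 0.0108, 0.00299, 0.00157 and 0.014). Col12a1 is itself a member of the fibroblast list, so there it was partly adjusted for itself and cannot be read like the others. None of the 4 was called with MPLA pairs summed (adjusted p = 0.0912, 0.0912, 0.0912 and 0.17), in the fit of all 15 libraries (adjusted p = 0.0754, 0.1, 0.0966 and 0.148) or by the methods' own test, and Cnn2 also lost its call without MPLA 1, MPLA 2 or MPLA 4. The fibroblast content of the MPLA libraries and the treatment still cannot be told apart.

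The fibroblast genes themselves were mostly not called with all libraries. Col12a1 was called higher, Col14a1 lower (7 to 18 counts in MPLA, below background, and 35, 108, 11 and 36 in IL4), and the other 6 of 8 were not, with a list median of 1.56. None was called with MPLA pairs summed. Col1a2, for example, was at 43580 to 51759 counts in MPLA and at 9771, 23916, 21 and 10303 in IL4, a difference of 1.70 ± 1.21. Without IL4 3, 6 of the 8 were called higher and 1 lower, where 14.9% of all genes were called higher and 11.9% lower. Among the 53 genes that held lower in MPLA, IL4 3 was the highest IL4 library for 29 (54.7%, against 25.3% of all genes) and in none the lowest by 1 or more. Clec7a, Ctss, H2-Eb1 and Cd74 were of this kind, while Retnla, Mrc1, Flt1, Ccl24 and the C1q genes had IL4 3 inside the range of the other IL4 libraries.

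**Figure D5:**
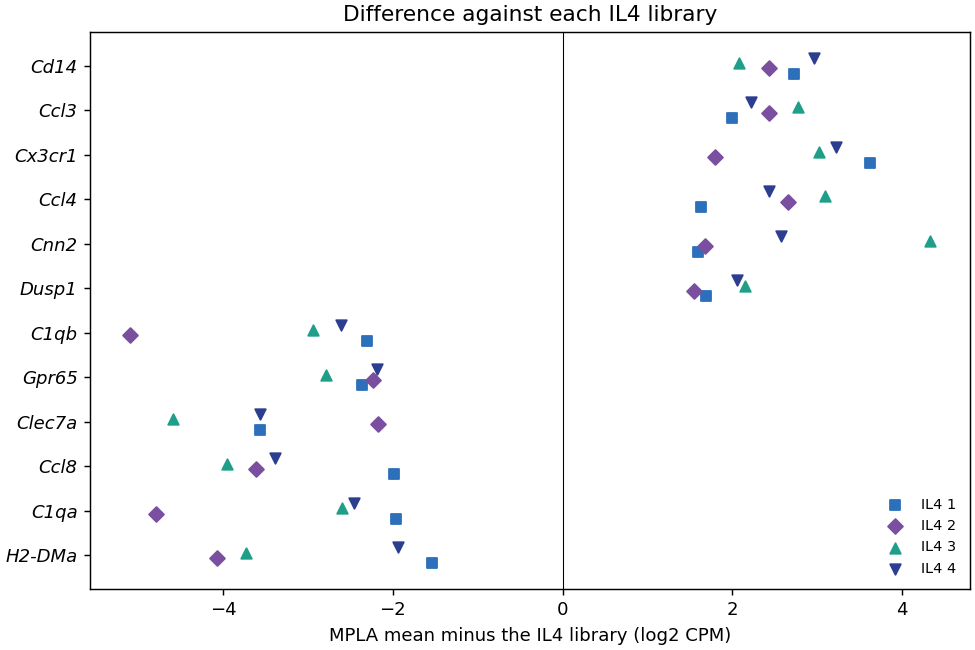
MPLA mean minus each IL4 library (log2 CPM, x axis) for the 6 genes higher and 6 lower in MPLA, above background in all 8 libraries, whose smallest difference was largest, 1 point per IL4 library. All points of a gene lie on one side of 0, with Cnn2 spread by IL4 3 and C1qa and C1qb by IL4 2.

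With the nearly identical MPLA pairs summed, 19 genes whose higher group was above background were still called. On the MPLA side these 15 included Marco, Fpr1, Cxcl2, Camp, S100a8, Cd14, Ccl3, Ccl4 and Il1a, and, named after their values were seen, the activating receptor Trem1, the transcription factor Cebpd, the proteoglycan-cleaving protease Adamts4, the growth factor Fgf10, the guanine nucleotide exchange factor Kalrn and the oxidase Nox1. Trem1 was at 164, 114, 106 and 174 counts in MPLA and at 6, 16, 11 and 7 in IL4, below background in every IL4 library. On the IL4 side the 4 included Flt1, Ccl24 and Gpr65. Retnla missed the threshold in this fit (adjusted p = 0.05), and of the 59 genes named by rule and called with all 8 libraries, 46 lost their call.

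Further regulators held in each IL4 library and are named after their values were seen. Batf3, a transcription factor of the AP-1 group, was at 24 to 35 counts in MPLA and at 212, 69, 194 and 199 in IL4, at least 6.57-fold lower in MPLA (adjusted p = 0.00275). Il4i1, a secreted amino acid oxidase named for its induction by IL-4, was at 21 to 31 counts in MPLA and at 108, 53, 197 and 90 in IL4, at least 4.47-fold lower. In both genes IL4 2 was the IL4 library nearest to MPLA. The cytokine signalling inhibitor Socs1 was at 306 to 370 counts in MPLA and at 590, 1882, 398 and 1309 in IL4, with -2.01 ± 0.39, and IL4 2 was the highest. On the MPLA side, Met, the receptor of hepatocyte growth factor, was at 513 to 667 counts in MPLA and at 76, 111, 76 and 215 in IL4, with 1.90 ± 0.27. Hif1a, a transcription factor of the response to low oxygen and to bacterial products, was at 11248 to 15623 counts in MPLA and at 2454, 5004, 1177 and 3003 in IL4, with 1.70 ± 0.37.

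Of 17 chemokine receptor genes, Cx3cr1 and Cxcr3 were called higher in MPLA (12.2% of all genes) and 4 lower (14.2%), among them Ccr1, Ccr2 and Ccr7. Under pan-macrophage scaling 2 were called lower (5.7% of all genes), and none was called with MPLA pairs summed. Cx3cr1, the fractalkine receptor, was at 1052, 825, 859 and 974 counts in MPLA and at 44, 204, 67 and 84 in IL4, with 2.76 ± 0.42. Ccr2, the receptor of Ccl2, was at 19 to 35 counts in MPLA and at 74, 514, 174 and 49 in IL4, at least 6.01-fold lower in MPLA, and at least 3.98-fold without IL4 2. Ccr7 was at background in all but IL4 4 (52 counts), so its call did not hold.

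Of 17 lipid and eicosanoid genes, 6 were called lower in MPLA (14.2% of all genes), namely Lpl, Cd36, Pparg, Ptgs1, Hpgd and Ltb4r1, and 1 higher (12.2%), Alox5, the enzyme that starts leukotriene synthesis. Under pan-macrophage scaling 2 were called lower (5.7%), without IL4 2 there were 7 (20.3%), and none was called with MPLA pairs summed. Alox5 was at 268, 178, 153 and 274 counts in MPLA and at 17, 44, 26 and 92 in IL4, at least 3.35-fold higher in MPLA. Ptgs1, the constitutive cyclooxygenase, was at 589 to 920 counts in MPLA and at 1137, 899, 1681 and 4514 in IL4, with -1.88 ± 0.45. Of 16 protease genes, the gelatinase Mmp9 was called higher (1.39 ± 0.35) and the lysosomal cysteine protease Ctss lower (-2.09 ± 0.46, at 21312 to 22763 counts in MPLA and 37285, 48538, 115369 and 48307 in IL4), against 12.2% and 14.2% of all genes. Of the 16, 5 were called lower without IL4 2 (20.3% of all genes), 3 were called higher (14.9%) and 2 lower (11.9%) without IL4 3, and none was called with MPLA pairs summed. The macrophage elastase Mmp12 had the widest range over IL4, at 38440 to 45852 counts in MPLA and at 41533, 148, 106945 and 64903 in IL4. It was not called with all libraries (-0.96, adjusted p = 0.582) and was called lower without IL4 2 (-1.38, adjusted p = 0.0193). The next widest were Ly6c1 (855, 22634, 73 and 3637 counts in IL4), Itgax (795, 26, 2293 and 1296) and the matrix gene Fn1 (4519, 25797, 210 and 4663). Of these Itgax was called, at -3.66 ± 1.06, and did not hold. Itgax lost its call in 14 of 21 alternative fits, and its difference ranged from -4.07 to -1.95 over the fits. Fn1 was not called with all libraries (1.55, adjusted p = 0.285), was called higher without IL4 2 (2.95, adjusted p = 0.0346), and differed by 0.031 with the fibroblast covariate.

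The remaining lists are given by their calls, which stand against 12.2% of all genes called higher and 14.2% lower with all libraries, and 18.8% and 20.3% without IL4 2. With MPLA pairs summed none of their genes was called other than S100a8 and Camp. Of the 14 pan-macrophage genes, Adgre1, which encodes the surface marker F4/80, was called higher (1.05 ± 0.23) and Fcgr3, Laptm5, Ctss and Mpeg1 lower, with a list median of -0.79. Without IL4 2, 1 was called higher and 7 lower. Under pan-macrophage scaling 1 was called higher (17.1% of all genes) and 2 lower (5.7%). That fit scales the libraries to these same genes, which holds their mean difference near 0, so its counts are no comparison with all genes. Of 9 Fc receptor and lectin genes, Clec5a was called higher and Fcgr3 and Lgals3 lower, and without IL4 2 there were 3 higher and 4 lower. Of 8 oxidase and antimicrobial genes S100a8 and Camp were called higher, and 3 were without IL4 2. Of 4 dendritic cell genes, Flt3, Xcr1 and Ccr7 were called lower, each above background in 1 library of the 8 at most, and the list median was -1.89. Of 10 mast cell, basophil and eosinophil genes Siglecf was called lower (47 to 73 counts in MPLA and 352, 37, 297 and 133 in IL4). None of the T and NK cell, B cell or endothelial genes was called. Of the 20 housekeeping genes Tbp was called higher (0.64 ± 0.20), with a list median of 0.15. None of 10 cell division genes was called, although their mean was 7.16 and 7.40 log2 CPM in IL4 2 and IL4 3 and 8.40 to 8.95 in the other libraries.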

How the data were processed

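The authors deposited raw counts of 768 nCounter probes, 754 of them genes, with 6 positive and 8 negative controls that were left out of the tests. Their methods name NanoStringQCPro, scaling to housekeeping genes in nSolver and a log2 scale for testing, with Benjamini-Yekutieli rates, none of which had been applied to the deposited counts. Lane and cartridge are not given in the sources used here and were not tested as batches. A current GRCm38.p6 symbol was found for 744 gene names, a synonym for 9 and neither for 1.

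Groups came from the sample titles. The 4 MPLA and 4 IL4 libraries were fitted alone by edgeR 4.0.16 (quasi-likelihood F-test, TMM factors, no low-count filter, R 4.3.3) after a check on simulated data. Calls are two-sided at a Benjamini-Hochberg adjusted p under 0.05 over 754 genes. The SE is the absolute log2 difference over the square root of F, and ± in the text is this SE, with n = 4 libraries per group. Log2 CPM used a prior count of 2, which pulls low values together. Bounds ("at least") use the mean log2 CPM of the higher group minus that of the lower group with each library at its background (mean of negative controls plus 2 SD) or its own value, whichever was higher. The fitted difference of a gene with libraries below background depends on the prior count. Counts carry sampling error only, beside the spread between libraries.

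Named genes were a preset list of 12, the 8 largest called increases and decreases with separate groups, the 6 genes each way whose smallest difference to an IL4 library was largest, the 4 widest over IL4, and the 3 called genes of smallest p in each list. Members, lists and rules were chosen with earlier results of these data known. Alternatives were 5 other scalings, DESeq2 1.42.0, limma 3.58.1, the methods' own test, a background filter, a replicate block, summed MPLA pairs, all 15 libraries, a fibroblast covariate and each library left out. The cell division list and a pair of stricter counts of held genes were added after the data were seen. Some items are not reported here.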

Additional observations from a re-analysis of the deposited data

Results flagged for a closer look

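Within each group of 4 libraries, the highest or lowest library was compared with the rest by its gap to the nearest value over the whole range (Dixon's ratio, against its critical value). Of 170 groups of 4 values examined, 6 passed, and chance passes about 1 in 20. In MPLA, the number of genes above background was 581 in MPLA 1 against 560 to 563 in the other libraries (ratio 0.857). In IL4, the mean of the neutrophil list was 3.76 log2 CPM in IL4 4 against 4.25 to 4.28 in the other libraries (0.933). Rnase2a (0.915), Mmp12 (0.86) and Pparg (0.86) were each lowest in IL4 2, at 329, 148 and 63 counts. Ctss was highest in IL4 3, at 115369 counts (0.901).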

How the results depend on the processing

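The 59 called genes named by rule kept their direction under every alternative that tested them, 21 for most and 20 for the 6 that did not pass the background filter. They were chosen as called in these same counts, which the alternatives fit again, so a kept direction was likely in advance. Of the 59, 9 also kept their call under all 21. The number of genes called higher in MPLA, 92, became 45 with housekeeping scaling, 60 with limma, 12 with the methods' t-test, 16 with MPLA pairs summed, 53 with all 15 libraries and 54 with a fibroblast covariate, and ranged from 38 to 142 when single libraries were left out. The number called lower, 107, became 43 with pan-macrophage scaling, 63 with total gene count scaling, 161 with DESeq2, 9 with the methods' t-test, 4 with MPLA pairs summed, 71 with all 15 libraries and 55 with the covariate, and ranged from 36 to 153 when single libraries were left out. Of all calls, 46.2% were higher in MPLA as reported, 26.8% with housekeeping scaling, 75% with pan-macrophage scaling, 60.4% with total gene count scaling and 35.7% with limma on housekeeping-scaled values. The number that held in each IL4 library, 117, became 196 with DESeq2, 0 with the methods' t-test, 6 with MPLA pairs summed and 58 with the covariate, and ranged from 49 to 240 when single libraries were left out. Without adjustment the methods' t-test called 279 genes at p under 0.05, and edgeR 304. Replicate numbers did not pair the libraries (correlation of same-numbered deviations -0.0463 to 0.148), and with a replicate block 57 genes were called higher, 38 lower and 2 held.

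Among named genes that were not called, 4 changed sign. Il12b, 0.17 as reported, was -0.031 with housekeeping scaling and -0.015 without IL4 2, and ranged up to 0.39 (without IL4 3) when single libraries were left out, with -0.0011 without IL4 1. Cd86, -0.74, was 0.13 with limma and the methods' t-test, 0.47 with a replicate block, and -1.11 (without IL4 1) to 1.20 (without IL4 2) with single libraries left out. Mmp12, -0.96, was 0.76 with limma and the methods' t-test and 0.66 with the covariate. Ly6c1, -0.64, was 0.024 with pan-macrophage scaling, 1.15 with limma and the methods' t-test, 1.28 with the block and -1.05 (without IL4 3) to 1.56 (without IL4 2) with single libraries left out. Differences of genes at background in 1 group are limited by the background, and those of genes with few counts by counting error. The causes of these changes were not tested.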
